A study of Mus musculus with 7 samples.

Results

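Chromatin accessibility was examined at the loci of 5 core pluripotency factors, Pou5f1, Sox2, Nanog, Sall4 and Utf1, in WT and Smad2/3 DKO epiblast-like cells (EpiLCs). The sites were those of the deposited ATAC-seq table whose midpoint lay within 50 kb of an annotated transcription start site (TSS) of 1 of these genes, and within 150 kb for Sox2, whose best-known enhancer in pluripotent cells lies far downstream of the gene. This gave 54 of 75880 listed sites: 6 at Pou5f1, 16 at Sox2, 9 at Nanog, 6 at Sall4 and 17 at Utf1.

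ATAC-seq reads open chromatin by the rate at which the Tn5 transposase inserts into it. The cells were mouse embryonic stem cells of the 129/Sv//Ev strain that had been moved for 2 days from 2i and LIF, which hold them in the naive state, to activin A and Fgf2, which bring them towards the primed epiblast. WT EpiLCs came from clone CCE, and Smad2/3 DKO EpiLCs from clone KT15.1F6, made by targeting the Smad3 promoter in Smad2-/- cells. Each genotype had 3 differentiations. Since each is 1 clone, clone and genotype cannot be told apart, and 1 further library held WT genomic DNA cut with Tn5, whose values are not analysed here. The table gives, per site, the authors' mean for each genotype as a log2 concentration (log2 of the mean normalized read count) and no value per library. Hence neither a spread between differentiations nor a test of any difference could be computed, and depth per library is unknown here. Values below are therefore means without error. A difference is the log2 concentration in DKO minus that in WT, and a site is called past the fold when the genotypes differ by more than 1.5-fold (0.585 on the log2 scale).

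Oct4 (the product of Pou5f1), Sox2 and Nanog are the transcription factors at the centre of the pluripotency network. Oct4 and Sox2 bind DNA side by side at a composite element in which a Sox site abuts part of an octamer, and such elements lie in enhancers of their own genes. Sall4 is a zinc finger protein that works with Oct4 and Nanog, and Utf1 is a chromatin-associated target of Oct4 and Sox2. These genes are active in naive and in primed pluripotent cells, though partly through different enhancers. Smad2 and Smad3 carry the Nodal and activin signal to the nucleus, and Nanog is among the genes that this signal acts on in the epiblast.

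Matches to the composite element of Oct4 and Sox2 are shown first, because such elements can mark enhancers of the factors' own genes. They are matches of letters only, and neither binding nor enhancer activity was measured here. Since such elements were already known in enhancers of the factors' own genes, the share with a match is no measure of enrichment. An exact search for the core letters TTGTNATGC, on both strands, in 500 bp around each midpoint found 4 of the 54 sites (7.41%), each at a different gene, against 2.21% of all listed sites. The 15 bases of each, read on the strand of the core from the C57BL/6J reference in RefSeq's GRCm38.p6 (mm10), have the core in capitals:
Pou5f1 upstream element, chr17:35504050-35504064, minus strand: cctTTGTTATGCatc
Sox2 downstream element, chr3:34654048-34654062, plus strand: ccaTTGTGATGCata
Nanog promoter element, chr6:122707414-122707428, minus strand: acaTTGTAATGCaaa
Utf1 downstream element, chr7:139945682-139945696, minus strand: tcaTTGTTATGCtag

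The cores of Pou5f1 and Utf1 share all 9 letters, and those of Sox2 and Nanog each differ from them in the base that the search left free. The surrounding plus-strand sequence, again with the core in capitals, shows the setting of each element:
Pou5f1, chr17:35504008-35504106: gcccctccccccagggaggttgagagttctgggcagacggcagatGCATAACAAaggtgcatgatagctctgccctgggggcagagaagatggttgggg
Sox2, chr3:34654006-34654104: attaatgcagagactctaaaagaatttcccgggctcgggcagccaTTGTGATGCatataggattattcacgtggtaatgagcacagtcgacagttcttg
Nanog, chr6:122707372-122707470: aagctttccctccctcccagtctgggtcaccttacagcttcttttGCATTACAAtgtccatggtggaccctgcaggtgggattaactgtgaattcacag
Utf1, chr7:139945640-139945738: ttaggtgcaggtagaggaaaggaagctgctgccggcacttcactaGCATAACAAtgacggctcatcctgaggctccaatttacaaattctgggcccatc

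Over all 54 sites, accessibility was higher in DKO at 29, lower at 24 and equal at 1. The median difference was 0.03, against -0.08 over all listed sites. Normalized reads summed over the 54 sites came to 2734.1 in WT and 2857.8 in DKO, so the DKO sum was 104.5% of WT, where over all listed sites it was 95.4%. Past the fold, 6 sites (11.1%) were higher in DKO and 8 (14.8%) were lower. The background was 8.51% higher and 16.0% lower over all listed sites. These counts depended on how sites were assigned. With Sox2 limited to 50 kb, 2 of 46 sites were higher and 7 lower. Neighbouring genes share these windows, and at the 24 sites whose nearest annotated TSS was that of the member gene, 0 were higher and 2 lower, the Nanog promoter and the Sox2 coding exon. Measured from the median of all listed sites, 9 of the 54 were higher and 7 lower, so which direction held more sites turned with the centring. The shares of all listed sites under this centring were not computed, so the turn cannot be set against them.

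**Figure D1:**
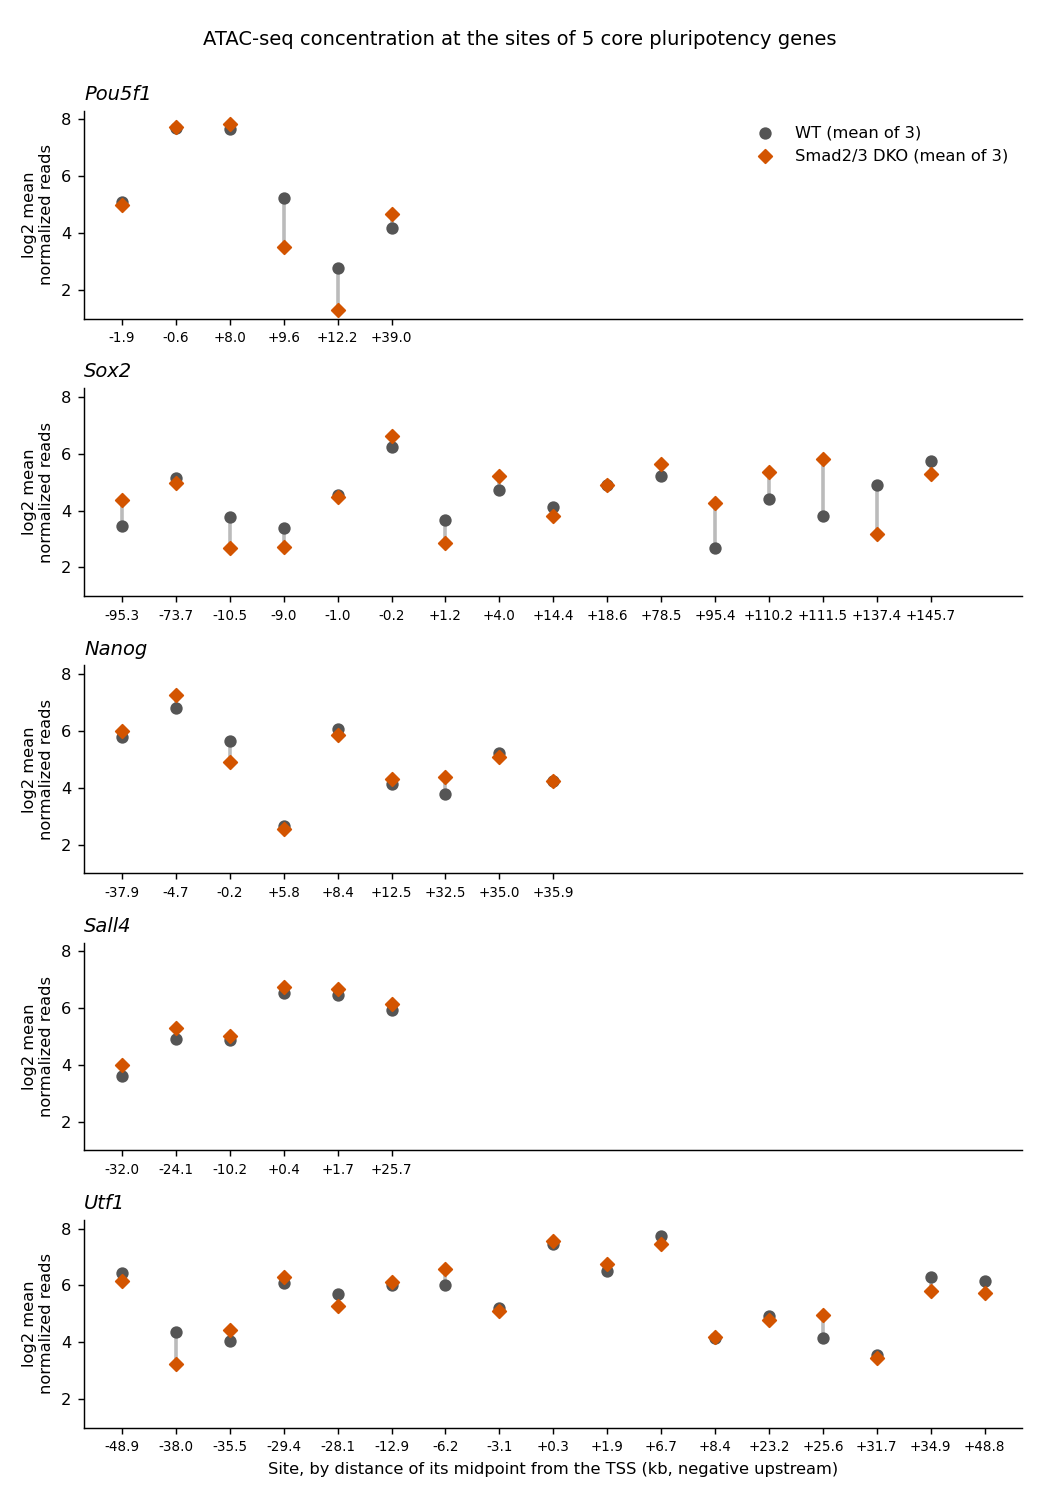
Log2 mean normalized reads (vertical axis) at each of the 54 sites in WT (grey circles) and Smad2/3 DKO (orange diamonds) EpiLCs, each the authors' mean of 3 differentiations, with sites ordered by distance from the TSS in kb (horizontal axis). Of the 29 sites with a mean concentration of 5 or more, 2 are past 1.5-fold, Sall4 has DKO above WT at 6 of 6 sites, and the longest grey connecting lines are at Sox2 and Pou5f1.

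Most sites past the fold had a mean concentration under 5. At 11 sites with a mean concentration over both genotypes under 4, which is 16 normalized reads, 2 were past the fold upwards and 5 downwards, where 20.5% and 29.8% of all listed sites in that range were. Between 4 and 5, 3 of 14 were higher and 2 lower, against 9.38% and 19.1%. At 5 or more, 1 of 29 was higher and 1 lower, against 3.09% and 8.46%. These last 2 sites were the Sox2 site 111.5 kb downstream of the TSS and the Nanog promoter. Each reached this range through 1 genotype only, the Sox2 site through DKO (5.8, against 3.81 in WT) and the Nanog promoter through WT (5.64, against 4.9 in DKO). Median differences at the core loci in these ranges were -0.33, 0.10 and 0.14.

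**Figure D2:**
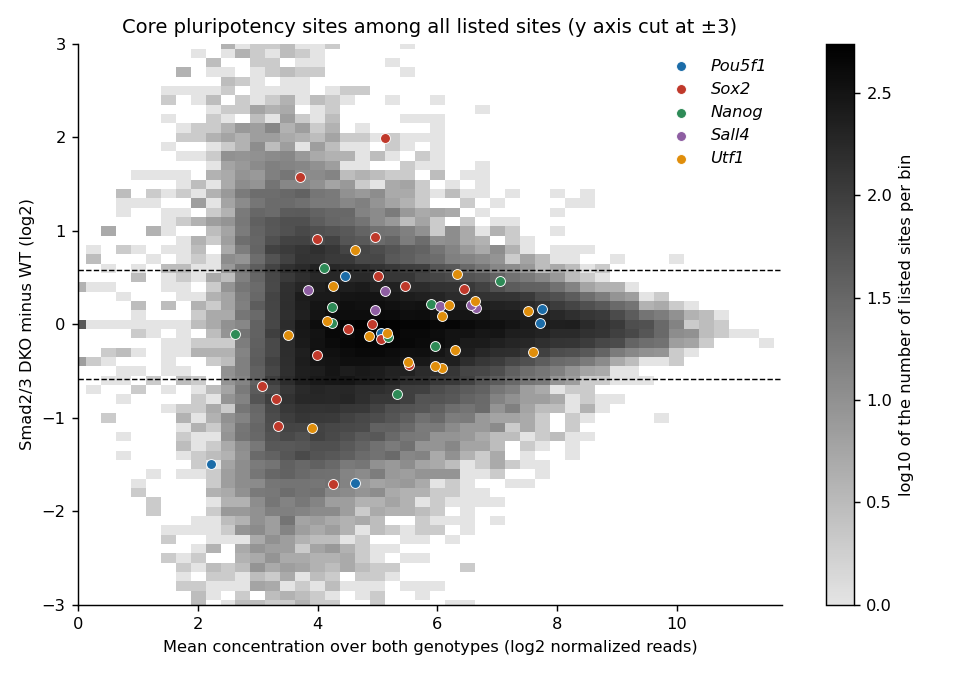
Difference in log2 concentration, DKO minus WT (vertical axis, cut at 3 either way), against mean concentration over both genotypes (horizontal axis) for the 54 sites, coloured by gene, over the density of all 75880 listed sites in grey; dashed lines mark 1.5-fold. All listed sites spread less as concentration increases, and of the 29 coloured points at a concentration of 5 or more, 2 lie outside the dashed lines.

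Pou5f1 spans chr17:35506032-35510777 on the plus strand. Its promoter site, chr17:35504710-35506170, was among the most open of all and was alike in both genotypes, with 7.71 in WT and 7.72 in DKO (209.4 and 210.8 normalized reads). At 1460 bp this site is long enough to take in the promoter and sequence well upstream of it, and its single value cannot separate them. The site with the composite element, chr17:35503960-35504210, lies 1.9 kb upstream, where the distal enhancer used in naive cells is known, and had 5.09 in WT and 5.0 in DKO, a difference of -0.09. Of the listed sites at a concentration of 5 or more, 46.5% differed by as much or more in that direction.

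Both Pou5f1 sites past the fold lay downstream of the gene and within another one. A site in a coding exon of Cchcr1, chr17:35518290-35518610, had 5.23 in WT and 3.53 in DKO (37.5 and 11.6 reads), 3.25-fold lower. Of listed sites between 4 and 5, 1.29% were as low or lower. Neither of its values lies in that range, and it is the lowest of its locus, so this share does not measure how unusual it is. The next site, chr17:35520970-35521120, also in a coding exon of Cchcr1, had 2.78 and 1.29, which is only 6.9 and 2.4 reads. The site with the highest mean concentration, chr17:35516090-35517470, covers the promoter region of Tcf19 and had 7.67 and 7.83. Summed over its 6 sites, Pou5f1 had 509.5 normalized reads in WT and 510.2 in DKO.

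Sox2 is a single-exon gene at chr3:34649995-34652461 on the plus strand, inside the long non-coding Sox2ot. With the wider window that Sox2 alone was given, its locus held 8 of the 14 sites past the fold, 4 in each direction. Differences there ran from -1.71 to 1.99, the widest range of the genes. This comparison is over unlike windows, since all 4 higher sites and the lowest one lay more than 50 kb from the TSS. Within 50 kb, as for the other genes, Sox2 differences ran from -1.09 to 0.52, a narrower range than at Pou5f1 (-1.7 to 0.52). The Sox2 promoter site, chr3:34649360-34650220, had 6.25 in WT and 6.63 in DKO (76.1 and 99.0 reads). The site with the composite element, chr3:34653830-34654170, 4.0 kb downstream where a well-studied proximal enhancer lies, had 4.71 and 5.23, a difference of 0.52. This was short of the fold, and 4.31% of listed sites at a concentration of 5 or more were as high or higher. The mean of this site, 5.0, is at the lower edge of that range and reached it only through DKO. Between 4 and 5, 11.6% of listed sites were as high or higher.

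Of the 4 higher sites, 3 lay downstream. The site at chr3:34761220-34761750, 111.5 kb downstream and intergenic, had 3.81 in WT and 5.8 in DKO, or 14.0 and 55.7 normalized reads, a 3.97-fold difference and the widest upward one at the 5 loci. Of the listed sites at a concentration of 5 or more, 0.0525% were as high or higher. The site reached that range only through its DKO value, and it is the largest of the 54 differences, so this share does not measure how unusual it is. Its WT value lies under 4. Among sites with a mean concentration under 4, 20.5% were higher past 1.5-fold, a smaller fold than here, and 3.24% were higher by 1.58 or more. The share as high as 1.99 in that range was not computed. The neighbouring site at chr3:34760020-34760470, 110.2 kb downstream, had 4.41 and 5.34 (1.91-fold). These sites are in the stretch where the distal Sox2 control region of mouse embryonic stem cells is known, and a weaker one at chr3:34745300-34745450, 95.4 kb downstream, had 2.7 and 4.28 (6.5 and 19.4 reads). The fourth higher site lay 95.3 kb upstream, nearest to a Sox2ot TSS, with 3.45 and 4.36.

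The central 300 bases of the site 111.5 kb downstream are shown because no other site at these loci was as far above WT. None of the motif strings searched was found in 500 bp around its midpoint, so no letters are in capitals:
Sox2 downstream site, chr3:34761336-34761635, plus strand: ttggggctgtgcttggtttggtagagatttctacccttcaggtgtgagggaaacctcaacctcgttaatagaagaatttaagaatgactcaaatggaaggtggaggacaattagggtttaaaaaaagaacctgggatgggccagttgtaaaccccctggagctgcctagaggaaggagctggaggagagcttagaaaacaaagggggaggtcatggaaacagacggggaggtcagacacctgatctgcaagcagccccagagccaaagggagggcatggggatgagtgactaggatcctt

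Lower Sox2 sites were scattered. The lowest, chr3:34787230-34787600, 137.4 kb downstream and so beyond the higher group, had 4.88 in WT and 3.17 in DKO (29.4 and 9.0 reads), 3.27-fold lower. The other 3 were weak in both genotypes, with at most 13.7 reads: 1 in the Sox2 coding exon (3.65 and 2.85) and 2 in Sox2ot introns 10.5 kb and 9.0 kb upstream, nearest to Mir1897 (3.78 and 2.69, then 3.37 and 2.71). Among sites at a concentration of 5 or more, the lowest difference was -0.43, at chr3:34795500-34795920, 145.7 kb downstream. Summed over the 16 sites, DKO had 489.0 normalized reads against 417.5 in WT, or 117.1%. Within 50 kb of the TSS alone, as for the other genes, the log2 ratio of these sums was 0.09 in place of 0.23, and the median difference -0.19 in place of -0.02.

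**Figure D3:**
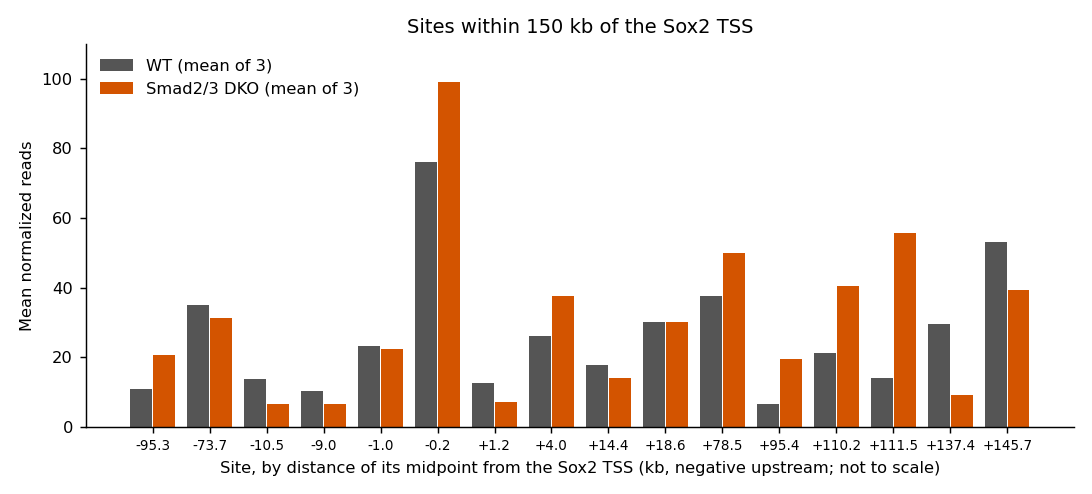
Mean normalized reads (vertical axis, from 0) at the 16 Sox2 sites in WT (grey) and Smad2/3 DKO (orange) EpiLCs, each bar the authors' mean of 3 differentiations, ordered by distance from the Sox2 TSS in kb (horizontal axis, not to scale). Orange bars exceed grey at 78.5 to 111.5 kb downstream, most at 111.5 kb (55.7 against 14.0 reads), and fall short of grey at 137.4 and 145.7 kb.

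Nanog, at chr6:122707489-122714633 on the plus strand, was the 1 member whose promoter was past the fold. The promoter site, chr6:122707060-122707530, holds the composite element 68 bp upstream of the nearest TSS and had 5.64 in WT and 4.9 in DKO, or 49.9 and 29.9 normalized reads, 1.67-fold lower. Of listed sites at a concentration of 5 or more, 5.16% were as low or lower. The promoter site is the lowest of the locus and reached that range only through WT. This share therefore does not measure how unusual it is. The site at chr6:122702370-122703140, 4.7 kb upstream where a Nanog enhancer is known, differed the other way, with 6.79 in WT and 7.25 in DKO (110.7 and 152.2 reads). This was the highest concentration at the locus, and the difference of 0.46, short of the fold, was the largest upward one among its sites at 5 or more.

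The remaining Nanog sites differed little. The only one past the fold, chr6:122739860-122740180, lay 32.5 kb downstream in an intron of Slc2a3, a glucose transporter gene, and at 0.60 (3.78 and 4.38) barely exceeded the threshold. The other 6 sites had differences from -0.23 to 0.22. Over all 9 sites the sums were 376.9 reads in WT and 403.8 in DKO.

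Sall4, at chr2:168748332-168767201 on the minus strand, had DKO above WT at 6 of 6 sites by similar small amounts, from 0.15 to 0.37, with none past the fold. Of these, chr2:168741210-168741730 (0.2) lies in an intron of the neighbouring Atp9a, 330 bp from the Atp9a TSS. Its promoter site, chr2:168766210-168767370, had 6.55 and 6.73 (93.7 and 106.2 reads), and a site in its intron, chr2:168765140-168765840, had 6.45 and 6.66. The largest difference among those at a concentration of 5 or more was 0.36, at chr2:168791050-168791600, 24.1 kb upstream (4.93 and 5.29). Summed, DKO had 116.1% of WT reads. Over all listed sites, 31566 of 75880 were higher in DKO, and no spread between differentiations exists here against which so small a common shift could be read.

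Utf1, at chr7:139943856-139945112 on the plus strand, lies downstream of Kndc1 and had 17 sites, the most of the 5, with 1115.0 normalized reads in WT and 1088.7 in DKO in sum. The promoter site, chr7:139943570-139944670, had 7.44 and 7.58. The site with the composite element, chr7:139945320-139946200, 1.9 kb downstream where the enhancer known for Oct4 and Sox2 lies, had 6.5 in WT and 6.75 in DKO (90.5 and 107.6 reads). The most open site, chr7:139949730-139951390, 6.7 kb downstream, had 7.74 and 7.44. The promoter and both strong downstream sites stayed within 0.30 of WT on the log2 scale.

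Only 2 Utf1 sites were past the fold, and each was nearest to another gene. An intron of Kndc1 38.0 kb upstream, chr7:139905750-139905960, had 4.36 in WT and 3.25 in DKO (20.5 and 9.5 reads). An intergenic site 25.6 kb downstream, nearest to Spef1l, chr7:139969310-139969640, had 4.17 and 4.97 (18.0 and 31.3 reads). Among sites at a concentration of 5 or more, the extremes were 0.54, at chr7:139937060-139938200 in a Kndc1 intron 6.2 kb upstream (6.03 and 6.57), and -0.47, at chr7:139978510-139979080 beside the Spef1l TSS (6.28 and 5.81).

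Set side by side, the 4 sites with a composite element differed in both directions. The differences were -0.74 at Nanog, -0.09 at Pou5f1, 0.25 at Utf1 and 0.52 at Sox2, the element nearest a TSS being the lowest. None of the 6 sites higher past the fold held the core, and of the 8 lower ones only the Nanog promoter did. In the sequences above, the Sox letters CATTGT, on either strand, overlap the core at Sox2, Nanog and Utf1 and do not at Pou5f1. Counting both strands, CATTGT was in 13 of the 54 sites (24.1%, against 20.7% of all listed), in 10 of them apart from a core.

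Letters of other factors were searched in the same 500 bp. GGATTA, the core bound by Otx2, a factor of the primed state, was in 7 sites (13.0%, against 14.4%), and lies in the printed Sox2 and Nanog sequences close to the composite element. GGAATG, the Tead core, was in 10 (18.5%, against 26.7%). The octamer ATGCAAAT, the FoxH1 string TGTGGATT, the Smad palindrome GTCTAGAC and the Esrrb string TCAAGGTCA were in 0 of 54, where 4.38%, 1.85%, 0.395% and 0.861% of all listed sites held them. Smad proteins also bind shorter letters that were not searched. Median GC in these 500 bp was 52.2% at the core loci and 50.0% over all sites, and the median width of a listed site was 360 bp and 400 bp.

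Promoters and distal sites can be read apart. At 13 core sites within 1 kb of any TSS the median difference was 0.02, with 0 higher past the fold and 1 lower, the Nanog promoter. Over 15001 such sites in the whole table the median was 0.01, with 3.69% higher and 4.17% lower. At 41 core sites farther from a TSS the median was 0.04, with 6 higher (14.6%) and 7 lower (17.1%), against -0.12, 9.7% and 18.9% over 60879.

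Sites within 50 kb of other pluripotency genes are set beside these values, where 8.51% of all listed sites were higher and 16.0% lower. The naive and primed lists include Klf2, Fgf5 and Pou3f1 (Oct6), at which the paper had reported changed accessibility in these same data. Their shares are therefore not a neutral scale. At 9 genes of the naive network, 11 of 41 sites (26.8%) were higher in DKO past the fold and 2 (4.88%) lower, with a median of 0.22. These genes differed among themselves: Zfp42 had 3 sites higher and 1 lower of 10, Klf4 had 0 of 4 past the fold, and Esrrb had 0 higher and 1 lower of 5. At 5 genes of the primed state, 3 of 41 (7.32%) were higher and 11 (26.8%) lower, with a median of -0.10. Fgf5 (4) and Pou3f1 (5) held most of the lower ones, while Otx2 and Foxd3 had 1 each and Dnmt3b 0. At 13 partners and shared targets of Oct4 and Sox2, such as Lin28a, Tdgf1 and Fbxo15, 10 of 118 (8.47%) were higher and 18 (15.3%) lower, with a median of 0.03. The core loci, with the wider window at Sox2, had 11.1% higher, 14.8% lower and a median of 0.03, and with 50 kb at every gene 2 of 46 higher, 7 lower and a median of 0.02. None of these lists was tested against another.

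**Figure D4:**
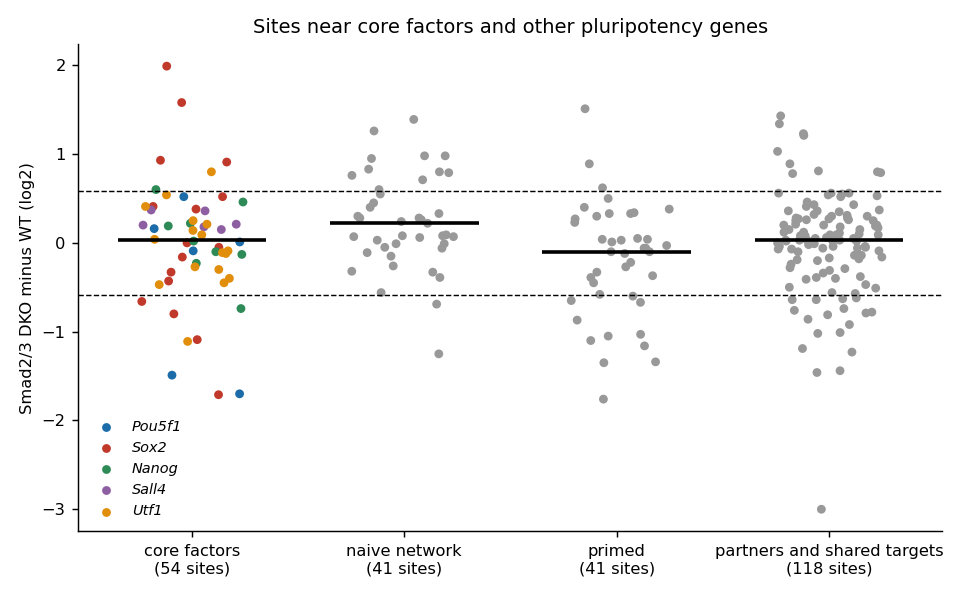
Difference in log2 concentration, DKO minus WT (vertical axis), at each site near the core factors (coloured by gene) and near 3 other lists of pluripotency genes (grey), with horizontal scatter for legibility; black lines are medians and dashed lines mark 1.5-fold. The medians are 0.03, 0.22, -0.10 and 0.03 from left to right, and the highest core points belong to Sox2.

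All 5 core promoters were open in both genotypes, with 5.64 to 7.71 in WT and 4.9 to 7.72 in DKO. Promoter accessibility alone did not set the cell type apart from others. A site lay within 1 kb of the TSS at 4 of 5 primed markers (not at Otx2; 5.66 to 7.18 in WT and 5.63 to 7.23 in DKO) and at 7 of 7 naive markers (4.57 to 7.83 and 4.64 to 8.07). It was also present at 4 of 4 trophoblast markers (4.55 to 8.5 and 3.86 to 8.52), 4 of 4 primitive endoderm markers (3.42 to 7.61 and 3.27 to 7.74) and 4 of 4 fibroblast markers (4.08 to 7.81 and 4.51 to 7.57). The part of other cell types in the values at the core loci was not tested.

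The window edges cut through no cluster of sites at Pou5f1, where the farthest site inside lay at 39.0 kb (a difference of 0.52) and the nearest outside at 82.3 kb (1.26). At Sox2 these were 145.7 kb downstream (-0.43) and 175.7 kb upstream (0.77), and at Sall4 32.0 kb (0.37) and 73.0 kb (-0.02), both upstream. Nanog and Utf1 had sites just past the limit, at 53.7 kb (-0.12) and 51.0 kb (0.45) downstream, with 37.9 kb upstream (0.22) and 48.9 kb upstream (-0.27) inside.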

How the data were processed

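The authors aligned ATAC-seq reads to mm10 with bowtie2, kept uniquely placed reads outside blacklisted regions, removed duplicates with Samtools, called sites with DANPOS2 against Tn5-cut genomic DNA and compared genotypes with DiffBind. The DiffBind version and normalization, and any shift of reads for the Tn5 cut, are not given in the sources used here. The deposited table holds log2 concentrations for both genotypes together and for each, as the authors' means of 3 libraries. Its overall concentration equals the log2 of the mean of both genotypes within 0.01. The table also holds the authors' fold, p-value and FDR, which were not used. Total counts per library are not analysed here.

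Differences were taken between the genotype columns, and 2 to the power of a concentration was summed over sites. Distances run from a midpoint to the nearest of 31601 TSSs (45756 curated RefSeq transcripts, 26180 genes, GRCm38.p6). Motif strings were matched exactly on both strands in 500 bp. For each gene the text names every site past 1.5-fold, the site nearest the TSS, that with the highest concentration and the extremes at a concentration of 5 or more. Sites with a composite element, an intronic Sall4 site and the Atp9a site were chosen after their values were seen. The naive, primed and partner genes named are examples from their lists. Members and lists were chosen with earlier results of these data known. Alternatives were other windows, nearest genes only, centring on the median of all sites, a minimum concentration, other folds and other motif windows. Membership, distances, counts and motif search were tested on simulated data. Python 3.11.15, numpy 2.4.6, pandas 2.3.3 and pysam 0.24.0 were used.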

Additional observations from a re-analysis of the deposited data

How the results depend on the processing

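With a single mean per genotype, nothing here can show whether a difference exceeds the spread between differentiations, and a share past the fold depends on how strong the sites are. No paired analysis was possible because the 3 libraries of a genotype are given only as their mean, and for the same reason no differentiation could be left out in turn. Of the values recomputed under the alternatives, 80 stayed within 0.1 on the log2 scale or 1.5-fold for a count, and 18 did not. Some of the 80 could not have moved, so the tally does not measure robustness. Limiting Sox2 to 50 kb left the values of each other gene untouched. The windows of 25 kb and 100 kb kept Sox2 at its main window and so repeated its values. Centring subtracted the median of all listed sites (-0.08) from every median and log2 ratio, a shift smaller than the 0.1 allowed. Fewer sites or another threshold changed the counts by construction. Sites lower past the fold, 8 as reported, numbered 2 with only sites nearest to their own gene, 3 at a concentration of at least 4 (where 4 were higher), 5 at a 2-fold threshold and 13 at a lower threshold of 0.32 on the log2 scale. Sites higher, 6 as reported, numbered 2 with Sox2 limited to 50 kb, 0 with only sites nearest to their own gene, 2 and 15 at these thresholds. Shares of all listed sites were not computed for these thresholds, for a concentration of at least 4 as a whole or for the centring. Counts under those settings therefore cannot be set against all listed sites. At a concentration of at least 4 the median over all core sites was 0.14 in place of 0.03, for Sox2 0.19 in place of -0.02 and for Utf1 0.04 in place of -0.09. With Sox2 limited to 50 kb its median was -0.19 and the log2 ratio of its summed reads 0.09 in place of 0.23. Within 25 kb the median was -0.10 for Nanog in place of 0.02 and 0.06 for Utf1, which was 0.12 with only its own nearest sites. The GGATTA match was in 4 sites in place of 7 in 300 bp (7.41%, against 8.71% of all sites) and in 8 in the listed intervals (14.8%, against 13.3%), and the Smad palindrome was in 1 in place of 0 in the listed intervals (1.85%, against 0.382%). Centring on the median of all sites gave 9 sites higher and 7 lower, and a window of 100 kb gave 9 and 8 of 69, so the direction with more sites turned over although neither count moved past these limits.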
